A study of Mus musculus with 8 samples.

Results

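The 10 genes described here encode heterogeneous nuclear ribonucleoproteins (hnRNPs): Hnrnpa1, Hnrnpa2b1, Hnrnpc, Hnrnpd, Hnrnpf, Hnrnph1, Hnrnpk, Hnrnpl, Hnrnpm and Hnrnpu. They were found by name among the 48676 rows of the deposited gene tables. All 10 were present, and all 10 were among the 16056 rows that reached 0.5 RPKM (reads per kilobase of gene model, scaled to the mapped reads of the library) in at least 2 of 8 libraries and were tested. The RNA came from nuclei of NIH3T3 cells, an immortalised line of mouse embryonic fibroblasts. One group was kept at 44 °C for 2 h (heat shock), one was given 200 mM KCl for 2 h (osmotic stress), one was given 0.2 mM H2O2 for 2 h (oxidative stress), and one was left untreated. Each group had 2 libraries, one in each of 2 tables. Nothing in the labels says that the 2 libraries of a group were grown apart, and the p-values therefore reflect only library-to-library spread, which may be technical.

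hnRNPs are abundant proteins that coat nascent transcripts in the nucleus and take part in splicing, 3′ end processing, export and mRNA decay. Most bind RNA through RNA recognition motifs, and hnRNP K does so through KH domains. Several of them shuttle between nucleus and cytoplasm, and hnRNP A1 is known to accumulate in the cytoplasm of cells under osmotic shock. The values below are of RNA in nuclei and say nothing of the place or amount of the proteins.

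The 8 listed fibroblast markers summed to between 1426 and 3149 RPKM per library, with Vim, Col1a2 and Fn1 among them. Thy1 (0.732 to 2.05 RPKM) and Pdgfrb (0.298 to 1.11 RPKM) stood low. In every library both were below Cd68 and Des, which are listed as markers of other cell types. The 12 listed markers of other cell types summed to between 11.4 and 33.8 RPKM, nearly all of it from Cd68 and Des, while Alb, Epcam and Myod1 lay under 0.21 RPKM in every library. Osmotic stress replicate 1 stood apart: its RPKM values summed to 1943000, against 503400 to 771700 in the other 7 libraries. Of its sum, 1025000 lay in 1 row, AC113316.1, and Malat1 was listed at 0 there. Giving every column the same sum, an alternative used below, therefore divided this library by 2.647. Leaving the 100 highest rows out of the sum made that factor 1.315. Of 4 nuclear long RNAs none was called against untreated cells, and Meg3 was listed at 0 in all 8 libraries. The median log2 change of all rows tested was -0.09 after heat shock, 0.18 with KCl and -0.10 with H2O2, each against untreated cells. Bulk RNA of this kind cannot tell fewer cells of a type from less RNA per cell.

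The 250 bases before the annotated starts of Hnrnpd and Hnrnpc are shown because these were the members with a call against untreated cells. Sequences are from RefSeq on GRCm38.p6 (the tables themselves were made with mm9), both genes lie on the minus strand, and letters run 5′ to 3′ toward the gene. The Hnrnpd window is chr5:99978939-99979188 and the Hnrnpc window is chr14:52104022-52104271. Capitals mark matches, on either strand, to GAANNTTC or TTCNNGAA (heat shock element), TGANTCA (AP-1), TGGAAA (core of the site of the tonicity factor NFAT5), CCAAT and CACGTG (E-box). No matches of different motifs overlap in these 2 windows.
Hnrnpd: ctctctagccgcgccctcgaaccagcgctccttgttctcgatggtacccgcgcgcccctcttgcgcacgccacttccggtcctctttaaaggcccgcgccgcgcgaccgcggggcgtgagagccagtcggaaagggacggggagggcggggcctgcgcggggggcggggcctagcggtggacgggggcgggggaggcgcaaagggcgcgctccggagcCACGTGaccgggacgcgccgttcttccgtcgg
Hnrnpc: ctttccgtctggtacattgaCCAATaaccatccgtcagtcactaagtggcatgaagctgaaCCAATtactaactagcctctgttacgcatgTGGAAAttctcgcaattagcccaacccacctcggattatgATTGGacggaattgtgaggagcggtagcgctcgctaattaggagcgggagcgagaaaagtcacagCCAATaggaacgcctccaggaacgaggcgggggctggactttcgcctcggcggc
The Hnrnpd window held 74.4% G and C and 1 CACGTG, a motif found in 6.02% of 32851 windows of the same length. The Hnrnpc window held 52.8% G and C, 4 matches to CCAAT (at least 1 match in 33.8% of windows) and 1 to TGGAAA (18.6%). GAANNTTC, TTCNNGAA and TGANTCA, present in 6.69%, 7.17% and 6.75% of windows, had no match in these 2 windows. Over all 10 members, GAANNTTC matched windows of Hnrnpa2b1, Hnrnpf and Hnrnpl (7.73% of 27025 genes had a match), and TTCNNGAA one of Hnrnpa2b1 (8.11%). CCAAT matched in 7 members (37.5% of genes), TGGAAA in 3 (20.9%), CACGTG in 2 (6.86%) and TGANTCA in 1 (7.82%).

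In untreated nuclei the members spanned a wide range of levels per gene length. Hnrnph1 and Hnrnpu stood highest, at 171 ± 3.12 and 170 ± 7.11 RPKM (mean ± SD, n = 2), and their libraries overlapped. Hnrnpl followed at 143 ± 10.7, Hnrnpa2b1 at 117 ± 2.98 and Hnrnpk at 102 ± 8.98 RPKM, with no overlap between neighbours in this order. Hnrnpm was at 54.7 ± 6.14 RPKM, and Hnrnpc (42.1 ± 4.22 RPKM) and Hnrnpf (36.8 ± 4.18 RPKM) overlapped. Hnrnpd, at 20.5 ± 2.41 RPKM, and Hnrnpa1, at 16.5 ± 1.73 RPKM, were lowest. The 10 levels lay between the 73.0th and the 97.6th percentile of the rows tested.

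**Figure D1:**
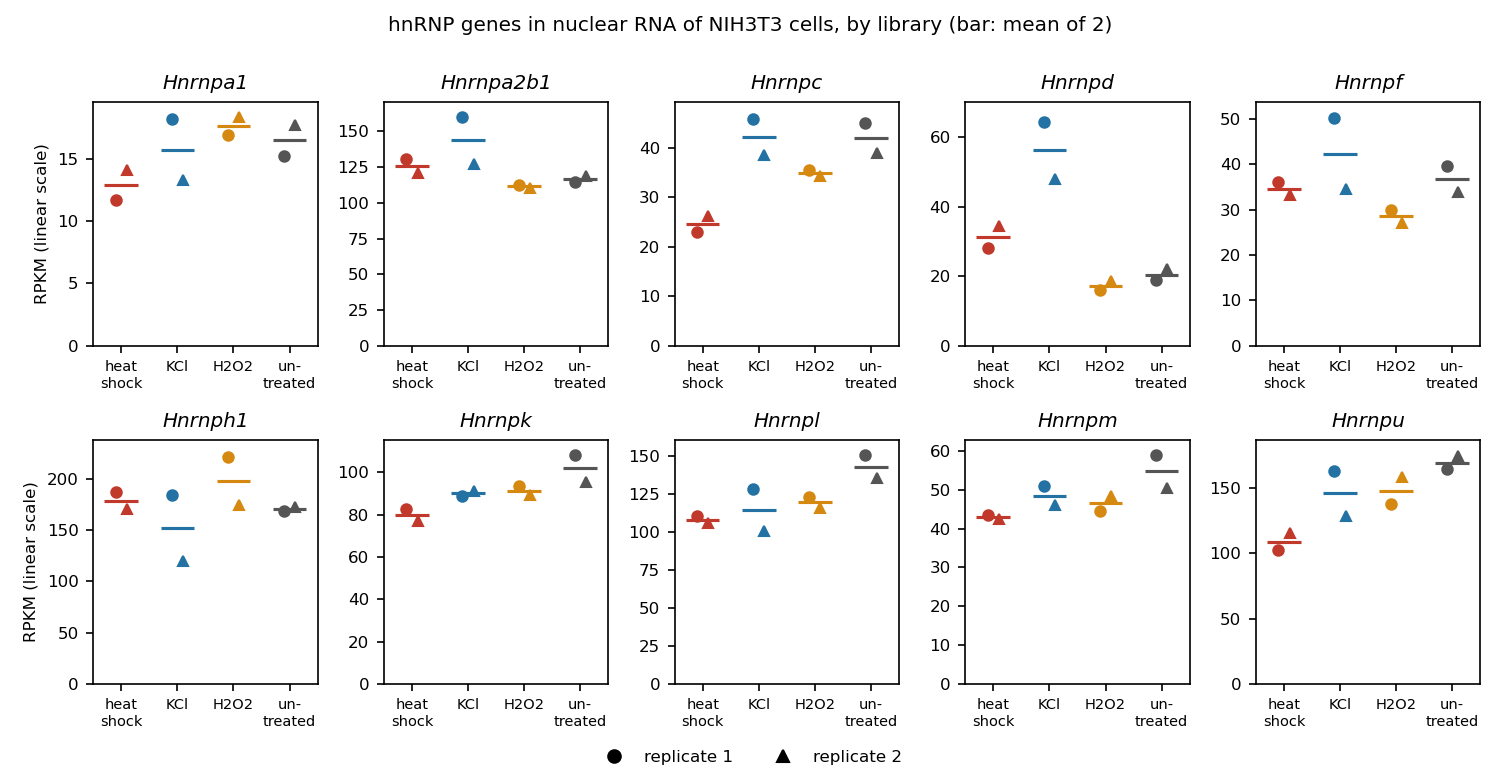
RPKM on a linear scale in each of the 8 libraries for the 10 hnRNP genes, with 1 point per library (circle, replicate 1; triangle, replicate 2) and a bar at the mean of 2. Hnrnpd is at 64.5 and 48.0 RPKM with KCl, above every library of the other groups, and Hnrnpc is at 23.1 and 26.1 RPKM after heat shock, below every library of the other groups.

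Against untreated cells, 2 of the 30 member changes passed the test (limma on log2(RPKM + 0.5), fitted over all rows and groups, Benjamini-Hochberg adjusted p under 0.05). Hnrnpd rose under osmotic stress and Hnrnpc fell after heat shock. No member was called under oxidative stress. Of the 30 changes, 26 were smaller than 1.5-fold in either direction. The share of all rows tested below that size was 76.6% after heat shock, 81.2% with KCl and 83.6% with H2O2.

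**Figure D2:**
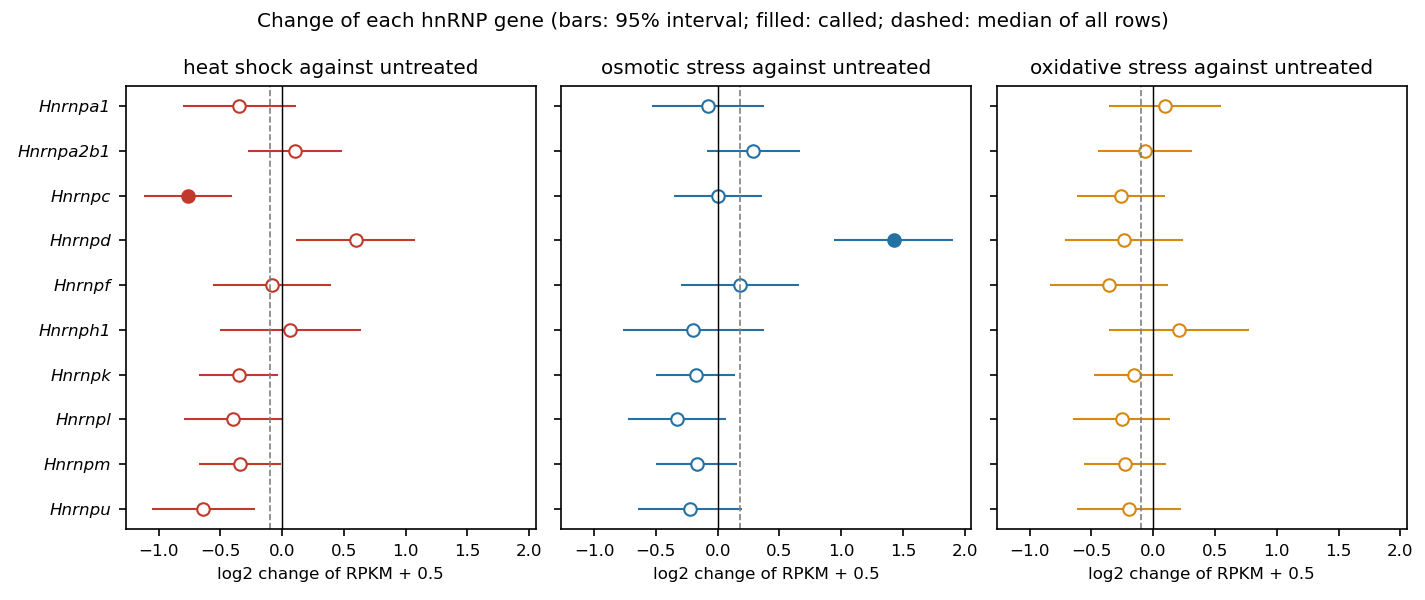
Log2 change of RPKM + 0.5 of each member against untreated cells in the 3 stresses, with 95% intervals from the limma fit. Filled points were called (Hnrnpc after heat shock at -0.76 and Hnrnpd under osmotic stress at 1.42), and the dashed line is the median of all rows tested.

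Hnrnpd encodes hnRNP D, also called AUF1, which binds AU-rich elements in mRNAs and is known for its part in their decay. Its level was 28.03 and 34.6 RPKM after heat shock, 64.5 and 48.0 RPKM with KCl, 15.9 and 18.7 RPKM with H2O2, and 18.8 and 22.2 RPKM in untreated cells. Both KCl libraries lay above all others, both heat shock libraries lay between them and the rest, and both H2O2 libraries lay below both untreated ones. Under osmotic stress Hnrnpd rose 2.68-fold on the log2(RPKM + 0.5) scale (log2 change 1.42, SE 0.20, limma adjusted p = 0.044). The log2 change was 1.75 within the first table and 1.10 within the second. After heat shock the log2 change was 0.60 (SE 0.20), with a 95% interval of 0.12 to 1.08, and did not pass (limma adjusted p = 0.13). With H2O2 it was -0.24 (95% interval -0.72 to 0.24, limma adjusted p = 0.59).

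Between stresses, Hnrnpd was higher with KCl than with H2O2 by a log2 value of 1.66 (SE 0.20, limma adjusted p = 0.014). It was also higher after heat shock than with H2O2, by 0.83 (SE 0.20, limma adjusted p = 0.041). Heat shock minus KCl was -0.83 and did not pass (limma adjusted p = 0.055). In the comparison of KCl with H2O2, 1 of 10 members was called higher and 0 lower, where 19.3% of all rows were called, 14.2% higher and 5.14% lower. In the comparison of heat shock with H2O2, 1 member was called higher and 0 lower, where 14.2% of all rows were called, 5.76% higher and 8.4% lower. Of the 12 listed markers of other cell types, 4 were tested (Cd68, Des, Pecam1 and Cdh1). These 4 and the fibroblast marker Sparc were called lower after heat shock than with H2O2. Pecam1 and Cdh1 were also called lower with KCl than with H2O2. However, Pecam1 and Cdh1 reached 0.5 RPKM only in the 2 H2O2 libraries, and were tested only because of them. Their lower values in the other groups are therefore no independent result. Against untreated cells Cdh1 was called higher with H2O2 (log2 change 1.34, limma adjusted p = 0.037), at 1.01 and 0.663 RPKM against 0.0236 and 0.0235 RPKM. Because Cdh1 passed the filter only through these H2O2 libraries, this rise is no independent result either. Of 9 mitochondrially encoded genes, mt-Atp6 was called lower after heat shock than with H2O2 (log2 change -3.05, limma adjusted p = 0.04). The part of these in the results was not tested.

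The call of Hnrnpd under osmotic stress was near its threshold. It held in 5 of 19 alternatives, and of the 8 fits without 1 library it held only in that without osmotic stress replicate 2. The limma adjusted p was 0.051 after median-of-ratios scaling (log2 change 1.22), 0.84 when every column was given the same sum (0.76) and 0.18 without osmotic stress replicate 1 (1.21). The excess of KCl over H2O2 held in 15 of 19 alternatives, and ended without osmotic stress replicate 1 (limma adjusted p = 0.071), without H2O2 replicate 1 (0.088) and with a common sum (0.50). The excess of heat shock over H2O2 held in 11 of 19. Osmotic stress replicate 1 is the library that stood apart in its RPKM sum and in Malat1, and the part of this in the result was not tested.

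Setting each member against the median of the other 9 in the same library gives a position that multiplying a library by a constant cannot move. Hnrnpk ranked 5 in all 8 libraries. For members ranked below it, Hnrnpd, Hnrnpc and Hnrnpm among them, that median was therefore the level of Hnrnpk. Their position is thus a ratio to Hnrnpk alone, whose stress libraries all lay below both untreated ones as deposited. Hnrnpd lay below that median by log2 values of -1.56 and -1.15 after heat shock and -0.46 and -0.93 with KCl. With H2O2 it lay at -2.55 and -2.25, and in untreated cells at -2.53 and -2.11. Both heat shock and both KCl libraries thus lay above both untreated libraries, and those with H2O2 overlapped them. As a share of the summed RPKM of the 10 genes, Hnrnpd made up 3.71% and 4.67% after heat shock, 6.77% and 6.41% with KCl, 1.92% and 2.35% with H2O2, and 2.13% and 2.58% in untreated cells. This measure was chosen after the values were seen, and no test was made on it.

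**Figure D3:**
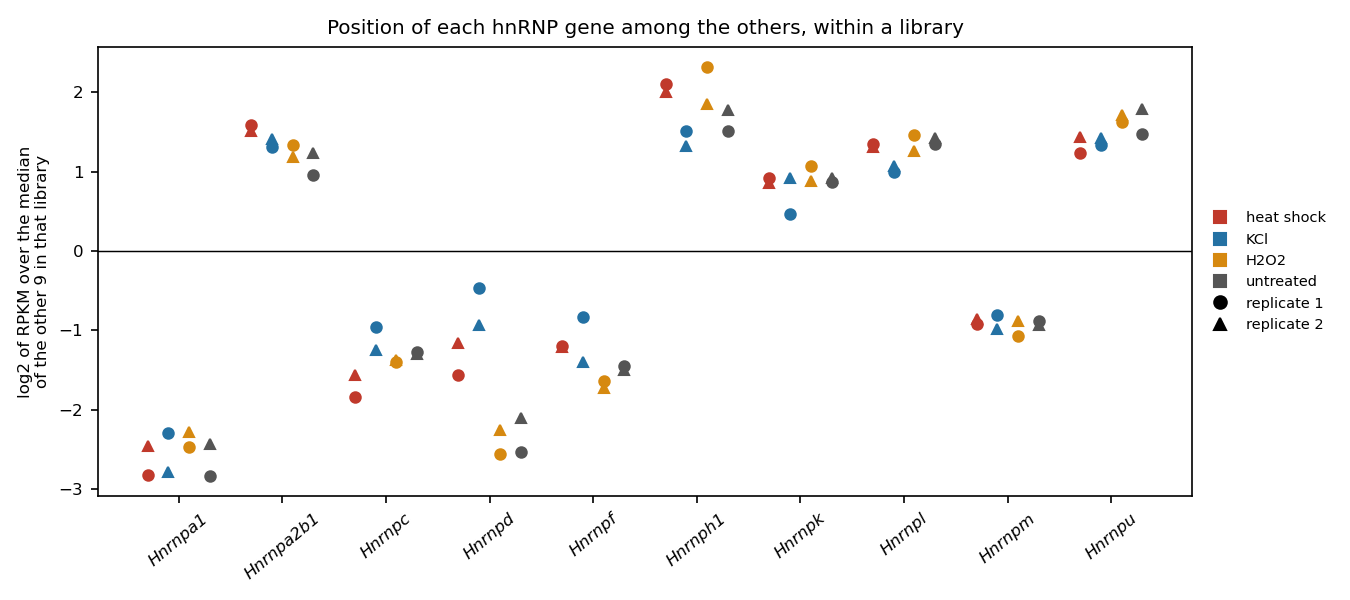
Log2 of each member's RPKM over the median RPKM of the other 9 members in the same library (color, group; shape, replicate). Hnrnpd lies at -0.46 and -0.93 with KCl and at -1.56 and -1.15 after heat shock, against -2.53 and -2.11 in untreated cells. Hnrnpm lies between -1.07 and -0.80 in all 8 libraries. For both genes the median is the level of Hnrnpk.

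The close relative of Hnrnpd, listed under its older symbol Hnrpdl, did not share this pattern in its values. It was at 67.0 and 68.6 RPKM after heat shock, 66.8 and 53.8 RPKM with KCl, 76.9 and 75.9 RPKM with H2O2, and 72.8 and 83.6 RPKM in untreated cells. No comparison of it with untreated cells passed, and its log2 change under osmotic stress was -0.38 (SE 0.15, limma adjusted p = 0.22). Some other hnRNP genes did share the signs of Hnrnpd. For heat shock, osmotic and oxidative stress, Rod1 had log2 changes of 0.74, 0.72 and -0.18, and Pcbp1 0.69, 1.02 and -0.38. Hnrnpa0 (0.27, 0.46 and -0.41), Hnrnpll (0.31, 0.46 and -0.045) and Hnrnpul1 (0.075, 0.41 and -0.48) shared all these signs too. So did the member Hnrnpa2b1. Hnrnpab, at -0.30, 0.41 and -0.36, shared them only in the last 2 stresses. None of these changes against untreated cells passed. Rod1, like Hnrnpd, was called higher after heat shock than with H2O2 (log2 change 0.92, limma adjusted p = 0.026). In that comparison 1 of the 19 other hnRNP genes was called higher and 1 lower, where 5.76% and 8.4% of all rows were.

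Hnrnpc encodes the C proteins, which form tetramers on long nascent transcripts and bind runs of uridine. Hnrnpc was at 23.1 and 26.1 RPKM after heat shock, 45.9 and 38.5 RPKM with KCl, 35.5 and 34.3 RPKM with H2O2, and 45.0 and 39.1 RPKM in untreated cells. Both heat shock libraries were the lowest of the 8, and the H2O2 libraries lay between them and the untreated ones. After heat shock it fell to 0.59 times the untreated level (log2 change -0.76, SE 0.15, limma adjusted p = 0.036), with -0.95 within the first table and -0.57 within the second. This was the only member called lower there (0 were called higher), where 6.62% of all rows were called, 4.08% lower and 2.54% higher. With median-of-ratios scaling 817 rows were called higher and 619 lower after heat shock, in place of 408 and 655. In these heat shock libraries the markers of other cell types summed to 11.4 and 11.5 RPKM, against 33.8 and 21.1 RPKM in untreated cells, and Cd68 and Des were called lower. The fibroblast markers summed to 1623 and 1426 RPKM in heat-shocked and 3149 and 2239 RPKM in untreated cells, with Fn1 and Sparc called lower. The 9 mitochondrially encoded genes, whose RNA is made outside the nucleus, summed to 1872 and 2555 RPKM after heat shock and 4684 and 2821 RPKM in untreated cells. Of these sums, mt-Co1 alone gave 1109 RPKM in untreated replicate 1 and 261 RPKM in untreated replicate 2. All 9 had log2 changes below 0 after heat shock (median -0.81), where 41.7% of all rows were above 0. Of the 9, 4 passed an unadjusted p under 0.05, as did 25.5% of all rows, and none was called. The part of these lists in the result was not tested. Hnrnpc was also lower after heat shock than with KCl, by -0.76 (SE 0.15, limma adjusted p = 0.031), 1 of 10 members called lower and 0 higher where 8.2% of rows were called, 6.42% lower and 1.78% higher. With median-of-ratios scaling the split of all rows between these 2 stresses was 346 higher and 181 lower, in place of 286 and 1030.

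With KCl, the log2 change of Hnrnpc against untreated cells was 0.00 (95% interval -0.35 to 0.36), and with H2O2 it was -0.26 (-0.62 to 0.09, limma adjusted p = 0.41). Within a library, Hnrnpc lay at -1.84 and -1.56 against the median of the other 9 after heat shock, and at -1.27 and -1.29 in untreated cells. That median was the level of Hnrnpk in each of these libraries. The call after heat shock held with median-of-ratios scaling, and ended with a common sum (log2 change -0.29, limma adjusted p = 0.92) and in the 6 fits that left out a heat shock, H2O2 or untreated library (adjusted p 0.069 to 0.22). The call against KCl held in 9 of 19 alternatives and in 3 of the 8 fits without 1 library, those without osmotic stress replicate 2 or an untreated library (in the other 5, adjusted p 0.061 to 0.21). It ended after median-of-ratios scaling (-0.44, adjusted p by limma 0.089), and with a common sum its sign turned (0.37).

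**Figure D4:**
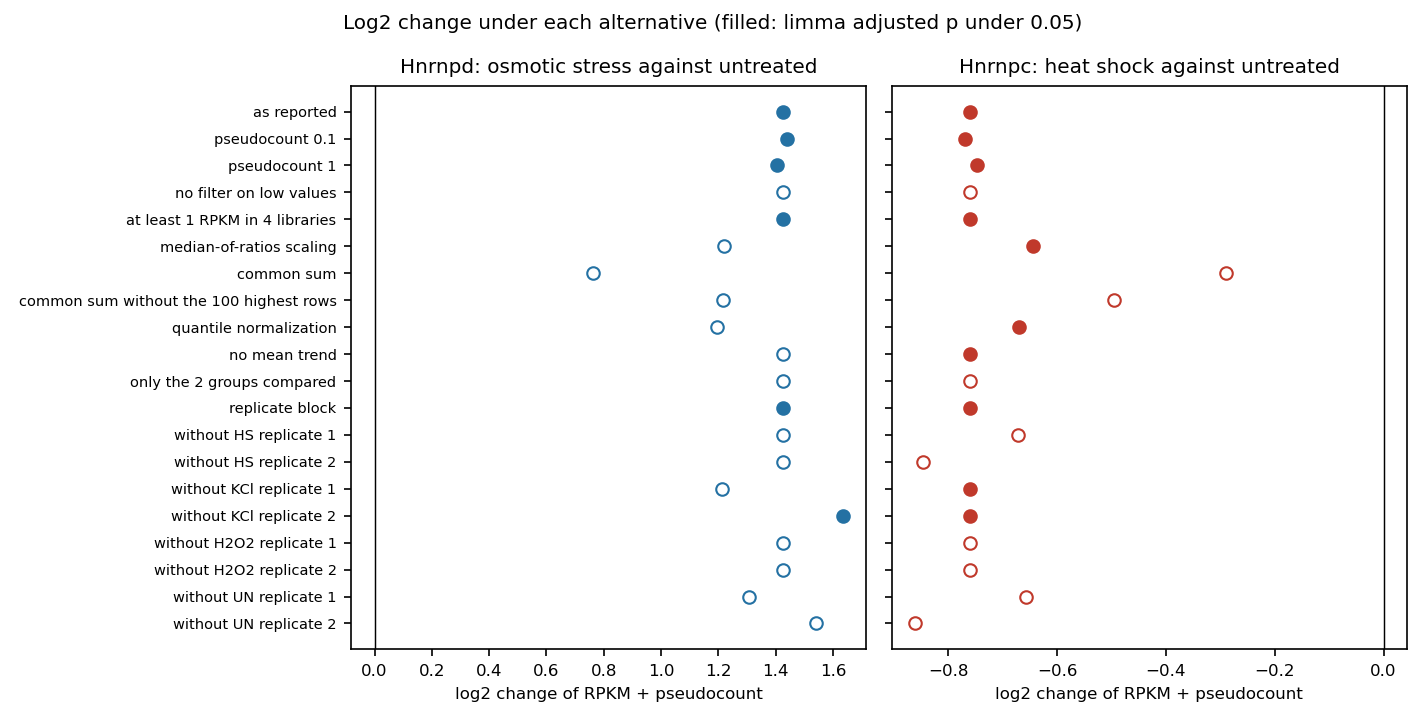
Log2 change of Hnrnpd under osmotic stress and of Hnrnpc after heat shock, each against untreated cells, as reported and under each of 19 alternatives. Filled points have a limma adjusted p under 0.05; Hnrnpd ranges from 0.76 to 1.64 and Hnrnpc from -0.86 to -0.29.

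The A and B proteins share a pair of RNA recognition motifs and a glycine-rich tail, and hnRNP A1 is known for opposing SR proteins at splice sites. Hnrnpa1 had 3 rows under its name, and the row with the highest mean stands for it here. That row was at 11.7 and 14.0 RPKM after heat shock, 18.2 and 13.2 RPKM with KCl, 16.9 and 18.3 RPKM with H2O2, and 15.2 and 17.7 RPKM in untreated cells. The heat shock libraries lay below the untreated ones, and the other groups overlapped them. Its log2 change was -0.35 (SE 0.19) after heat shock, -0.08 under osmotic stress and 0.10 under oxidative stress, and none passed (limma adjusted p = 0.31, 0.84 and 0.84). The other 2 rows lay at 2.61 to 5.31 RPKM and at 0.885 to 1.64 RPKM, and none of their changes against untreated cells passed. Copies and pseudogenes of Hnrnpa1 can share its reads, so its level is uncertain.

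Hnrnpa2b1, whose product binds many of the same RNAs and is known for sorting RNAs for transport, was at 131 and 121 RPKM after heat shock and 160 and 127 RPKM with KCl. With H2O2 it was at 113 and 111 RPKM, and in untreated cells at 115 and 119 RPKM. Heat shock and KCl libraries lay above the untreated ones and H2O2 libraries below them, by small amounts. The log2 changes were 0.11, 0.29 and -0.07 for heat shock, osmotic and oxidative stress (SE 0.16 each), and none passed. When every column was given the same sum, the value under osmotic stress was -0.38, and under oxidative stress the sign also turned, to 0.13.

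Hnrnpf and Hnrnph1 encode related proteins that bind runs of guanine and act on splicing and polyadenylation. Hnrnpf was at 36.0 and 33.3 RPKM after heat shock, 50.1 and 34.6 RPKM with KCl, 30.01 and 27.0 RPKM with H2O2, and 39.7 and 33.8 RPKM in untreated cells. Only the H2O2 libraries were clear of the untreated ones, with a log2 change of -0.36 (95% interval -0.84 to 0.12, limma adjusted p = 0.40). Hnrnph1 was at 187 and 171 RPKM after heat shock, 184 and 120 RPKM with KCl, 222 and 175 RPKM with H2O2, and 168 and 173 RPKM in untreated cells. Both H2O2 libraries lay above the untreated ones and the other groups overlapped them. Its 2 KCl libraries differed more than any 2 groups of it did in their means, and none of its changes passed. Hnrnpf had a log2 change of 0.54 for KCl over H2O2 (SE 0.20, limma adjusted p = 0.095).

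Hnrnpk encodes a protein that binds runs of cytidine, hnRNP L binds CA repeats and hnRNP M binds GU-rich RNA. Hnrnpk was at 82.6 and 76.9 RPKM after heat shock, 88.8 and 91.2 RPKM with KCl, 93.5 and 89.1 RPKM with H2O2, and 108 and 95.7 RPKM in untreated cells. Hnrnpl was at 111 and 106 RPKM after heat shock, 128 and 100.5 RPKM with KCl, 123 and 116 RPKM with H2O2, and 151 and 135 RPKM in untreated cells. As deposited, all 6 stress libraries of Hnrnpk and of Hnrnpl lay below both untreated libraries. Hnrnpm was at 43.5 and 42.4 RPKM after heat shock, 50.9 and 46.0 RPKM with KCl, 44.6 and 48.5 RPKM with H2O2, and 59.0 and 50.4 RPKM in untreated cells. For Hnrnpm only KCl overlapped the untreated libraries.

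A separate row under Hnrpk, an older symbol of Hnrnpk, was at 5.54 and 6.29 RPKM after heat shock, 1.44 and 1.37 RPKM with KCl, 11.9 and 9.15 RPKM with H2O2, and 8.86 and 5.87 RPKM in untreated cells. Rows named Hnrph1 and hnRNP lay between 2.89 and 9.06 RPKM. These 3 rows were looked up after values had been seen, and no test is given for them.

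None of the 9 changes of Hnrnpk, Hnrnpl and Hnrnpm passed. After heat shock the log2 changes were -0.35 for Hnrnpk, -0.40 for Hnrnpl and -0.34 for Hnrnpm (limma adjusted p = 0.16, 0.19 and 0.19), and with a common sum they were 0.13, 0.08 and 0.14. In that order they were -0.18, -0.33 and -0.17 under osmotic stress and -0.16, -0.26 and -0.23 under oxidative stress. In the 4 group means after centering, Hnrnpk and Hnrnpm were the most alike of all pairs of members, with a root mean square difference of 0.034 on the log2 scale. Hnrnpd was the least alike, and its nearest member, Hnrnpf, differed by 0.493.

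Hnrnpu encodes scaffold attachment factor A, a chromatin-associated protein that binds both RNA and DNA. It was at 103 and 115 RPKM after heat shock, 163 and 129 RPKM with KCl, 138 and 159 RPKM with H2O2, and 165 and 175 RPKM in untreated cells. As deposited, every stress library lay below both untreated ones, and the heat shock libraries were the lowest. The log2 change after heat shock was -0.64 (SE 0.18), with a 95% interval of -1.06 to -0.22, and did not pass (limma adjusted p = 0.081). It stayed below 0 in all 19 alternatives, from -0.72 to -0.16.

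Counted over the 10 members as deposited, heat shock libraries lay below both untreated libraries for 6 and above them for 2, where 35.8% and 22.0% of all rows did so. With KCl it was 3 below and 2 above, against 12.4% and 38.8% of rows. With H2O2 it was 8 below and 1 above, against 30.1% and 18.0% of rows. These counts moved with the scaling, and so did those of all rows. With median-of-ratios scaling 5 members lay below and 2 above after heat shock (29.5% and 29.4% of rows), 6 below and 1 above with KCl (23.2% and 24.4%), and 4 below and 1 above with H2O2 (21.6% and 23.8%). With a common sum 1 member lay below and 7 above after heat shock (11.7% and 52.7% of rows), 7 below and 1 above with KCl (18.8% and 2.62%), and 3 below and 4 above with H2O2 (14.5% and 30.1%). After heat shock more members thus lay below than above as deposited, and more above than below with a common sum. The median log2 change of the members was -0.34 after heat shock, -0.12 under osmotic stress and -0.21 under oxidative stress, beside -0.09, 0.18 and -0.10 for all rows. The 3 comparisons share the untreated libraries. Between stresses, heat shock libraries lay below both KCl libraries for 5 members and above for 0 (50.2% and 9.28% of all rows). They lay below both H2O2 libraries for 6 and above for 3 (33.5% and 31.5%). KCl libraries lay above both H2O2 libraries for 4 members and below for 0 (49.3% and 16.6%). Under osmotic stress 1 member was called higher and 0 lower, where 0.691% of all rows were called, 0.43% higher and 0.262% lower. The split of all rows under osmotic stress was 69 higher and 42 lower as deposited and 49 and 87 with median-of-ratios scaling. Under oxidative stress 0 members were called by limma, where 1.48% of all rows were called, 1.29% higher and 0.193% lower. At an unadjusted p under 0.05, 6 of the 10 members passed after heat shock, 1 with KCl and 0 with H2O2, where 25.5%, 22.1% and 17.9% of all rows did.

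Summed over the 10 members, the level was 748 ± 10.95 RPKM after heat shock, 851 ± 145 RPKM with KCl and 813 ± 25.2 RPKM with H2O2, against 872 ± 16.9 RPKM in untreated cells (mean ± SD, n = 2). Both heat shock and both H2O2 libraries lay below both untreated ones, and those with KCl, at 954 and 749 RPKM, lay on either side. That order held only as deposited. With median-of-ratios scaling heat shock (831.4 and 778.4) and H2O2 (907.5 and 836.6) overlapped untreated cells (831.1 and 899.1). With a common sum both heat shock libraries (1004.9 and 1079) and both H2O2 libraries (927.7 and 936) lay above them (841.4 and 902.9). Both KCl libraries lay below both untreated ones with median-of-ratios scaling (785.0 and 672.1) and with a common sum (360.3 and 779.9). They also did so with the common sum without the 100 highest rows (725.3 and 691.3, against 811.3 and 879.8).

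Of 19 other hnRNP genes reported here, all tested, 0 rose and 1 fell after heat shock, and by limma 0 were called under osmotic or oxidative stress. At an unadjusted p under 0.05, 4 of the 19 passed after heat shock, 8 with KCl and 3 with H2O2, where 25.5%, 22.1% and 17.9% of all rows did, and with median-of-ratios scaling 0 were called with KCl or with H2O2. Hnrnph2, a near relative of Hnrnph1, had 10.5 and 12.5 RPKM in heat-shocked cells and 21.1 and 25.1 RPKM in untreated cells (log2 change -0.97, SE 0.16, limma adjusted p = 0.025). After median-of-ratios scaling the adjusted p of Hnrnph2 by limma was 0.028, and with a common sum it was 0.83. Of the 8 fits without 1 library, its call held in the 2 without an osmotic stress library and missed in the others (0.053 to 0.18). The median log2 changes of the list were -0.08, 0.24 and -0.23 for heat shock, osmotic and oxidative stress.

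Between KCl and H2O2, 7 of these 19 genes were higher and 0 lower with KCl, Pcbp1 (log2 change 1.40), Cirbp (1.25) and Rod1 (0.90) by the most. That count moved with the scaling: with median-of-ratios scaling 1 was higher and 3 lower, and over all rows the split of calls was then 519 higher and 1140 lower in place of 2276 and 825. Cirbp, a cold-inducible RNA-binding protein, was at 6.54 and 4.63 RPKM after heat shock, 25.7 and 14.7 RPKM with KCl, 8.34 and 7.51 RPKM with H2O2, and 13.3 and 9.77 RPKM in untreated cells. It was lower after heat shock than with KCl (log2 change -1.73, SE 0.30, limma adjusted p = 0.026). In that comparison 3 of the 19 genes were called lower and 0 higher, where 6.42% and 1.78% of all rows were. The split of all rows there turned with median-of-ratios scaling, to 346 higher and 181 lower in place of 286 and 1030.

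**Figure D5:**
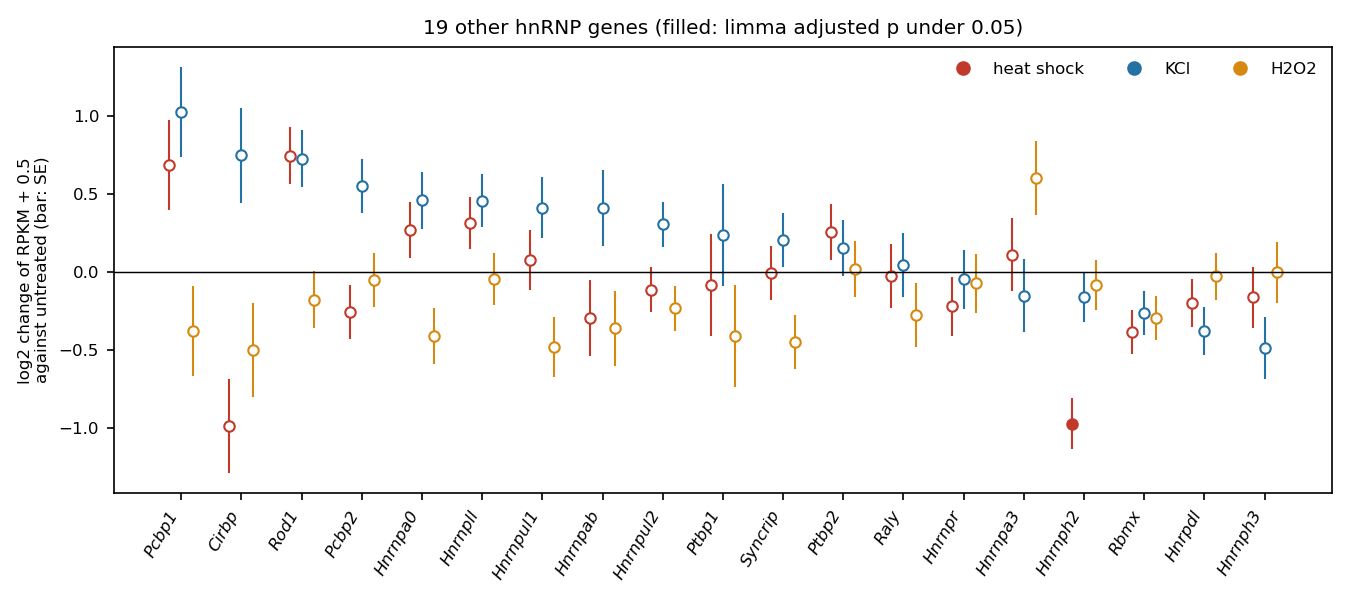
Log2 change of RPKM + 0.5 against untreated cells for 19 other hnRNP genes in the 3 stresses, with standard errors, ordered by the value under KCl. The 1 filled point was called: Hnrnph2 after heat shock at -0.97.

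Of 20 other nuclear RNA-binding protein genes, 1 fell after heat shock and none passed under the other stresses. That gene was Rbm3, another cold-inducible protein, with 39.1 and 41.5 RPKM in heat-shocked and 79.4 and 73.7 RPKM in untreated cells (log2 change -0.92, SE 0.13, limma adjusted p = 0.017). With a common sum its log2 change was -0.44 (limma adjusted p = 0.86), and its call also ended in the 4 fits without a heat shock or untreated library (adjusted p 0.06 to 0.15). Rbm3 was also low with KCl, at 47.3 and 49.0 RPKM, where its change did not pass (log2 change -0.66, limma adjusted p = 0.081). With H2O2 it was at 81.4 and 72.7 RPKM. For Rbm3, heat shock minus KCl was -0.255 and did not pass (limma adjusted p = 0.25). Of 6 genes for the import and modification of hnRNPs (Tnpo1 and Tnpo2, Prmt1 and Prmt5, Mknk1 and Mknk2), none passed against untreated cells. Prmt1, which encodes an arginine methyltransferase and had the highest mean of the 6, averaged 36.3 RPKM after heat shock, 49.5 RPKM with KCl and 39.6 RPKM with H2O2, against 50.3 RPKM in untreated cells.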

How the data were processed

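Nuclear RNA was sequenced from 8 libraries in 4 groups. Per the labels' protocols, nuclei were enriched on sucrose, ribosomal RNA was depleted and libraries were strand-specific. The submitters' processing notes name Bowtie, SAMtools, Cufflinks and build mm9. Tool versions, gene models and strand setting: not given in the sources used here. RPKM values were made by the authors, per the file headers, and no counts were used. On olfactory receptor rows the value of 1 fragment put each stress library at 0.969 to 1.06 times the depth of the untreated library of its table; absolute depth is unknown, so no counting intervals were made.

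RPKM was used as deposited, with 0.5 added before log2. Rows with at least 0.5 RPKM in 2 libraries were fitted in limma 3.58.1 (R 4.3.3) with 4 group means, empirical Bayes with a mean trend, 6 comparisons (two-sided) and Benjamini-Hochberg adjustment over 16056 rows. The fit was tested on simulated data. An exact permutation test of 2 against 2 libraries cannot go below p = 0.333, so tests rest on spread shared across rows and groups. That spread was not equal between groups. Over all rows tested, the log2 difference of the 2 replicates had an SD of 0.873 with KCl. It was 0.525 after heat shock, 0.612 with H2O2 and 0.568 in untreated cells. The SE and p-value of a comparison with KCl therefore do not measure the spread of the KCl libraries alone. All members were named. Of other lists, up to 3 called genes each way, or the highest, were named by a fixed rule. Hnrpdl, the genes set beside it and genes named between stresses were chosen after their values were seen. Members and lists were chosen with earlier results of these data known. 1 gene was left out of the list of other hnRNP genes and is not reported here.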

Additional observations from a re-analysis of the deposited data

How the results depend on the processing

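With 2 libraries per group the counts of calls depend on the setting more than the log2 changes do. For heat shock, osmotic and oxidative stress against untreated cells, 1063, 111 and 238 rows were called. Leaving out 1 library gave 73 to 1231, 8 to 777 and 11 to 229, and fitting only the 2 groups compared gave 241, 2 and 5. A common sum gave 373 for heat shock. For oxidative stress no filter gave 880, at least 1 RPKM in 4 libraries 31, median-of-ratios scaling 421, a common sum without the 100 highest rows 398 and no mean trend 375. Between stresses, 1316 (heat shock and KCl), 2273 (heat shock and H2O2) and 3101 (KCl and H2O2) rows were called, and leaving out 1 library gave 73 to 1138, 107 to 2307 and 14 to 2890. Fitting only 2 groups gave 60 and 10 for the first and the last. For these 2, median-of-ratios scaling gave 527 and 1659, a common sum 557 and 815, that sum without the highest rows 616 and 1360, and quantile normalization 547 and 1415. A common sum gave 594 for heat shock and H2O2.

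Members called went to 0 after heat shock with no filter, either common sum or only 2 groups, and to 0 under osmotic stress also with the other 2 scalings and with no mean trend. Between heat shock and KCl it was 0 with both common sums, median-of-ratios scaling and only 2 groups. Between heat shock and H2O2 it was 0 with no filter and a common sum, 2 with median-of-ratios scaling and 3 with quantile normalization. Between KCl and H2O2 it was 0 with a common sum and only 2 groups, and 2 with quantile normalization. Without 1 library it ranged from 0 to 1, or to 2 for the pairs with KCl against another stress. The cause was not tested.

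The replicate block called 2124, 433 and 412 rows against untreated cells and 2483, 3836 and 5228 between stresses, with 2 members called in each pair of stresses. The members it added were Hnrnpd for heat shock and KCl (limma adjusted p = 0.047 in place of 0.055), Hnrnpc for heat shock and H2O2 (0.048 in place of 0.072) and Hnrnpf for KCl and H2O2 (0.032 in place of 0.095). Correlations across rows of the replicate differences of 2 groups were all positive, from 0.062 for KCl and untreated to 0.264 for heat shock and H2O2, 5 of 6 over 0.1. Replicate numbers also go with the 2 tables, whose values of 1 fragment differ (0.0147 to 0.0153 and 0.0189 to 0.0208 RPKM), and Col3a1 was 1.91 to 2.55 times higher in replicate 2 of each group. These are hints of a shared difference between replicates 1 and 2. The labels name no shared day or culture, so pairing by design is not known and the block was not used for the values reported.

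Signs turned for small changes. After heat shock, with a common sum, values were 0.125 for Hnrnpk, 0.117 for Hnrnpa1, 0.135 for Hnrnpm, 0.393 for Hnrnpf and 0.078 for Hnrnpl (0.019 with quantile normalization). Hnrnpf was also at 0.035 with median-of-ratios scaling, 0.186 with the common sum without the highest rows, 0.03 with quantile normalization and 0.034 without untreated replicate 1 (-0.195 to 0.034 over the fits without 1 library). Under osmotic stress, with median-of-ratios scaling, the common sum, that sum without the highest rows and quantile normalization, values were -0.2, -0.656, -0.204 and -0.192 for Hnrnpc and -0.021, -0.478, -0.025 and -0.019 for Hnrnpf. Hnrnpa2b1 was at -0.379 with the common sum. Without osmotic stress replicate 1, Hnrnpc was at -0.121 and Hnrnpf at -0.082; without replicate 2, Hnrnph1 was at 0.11 and Hnrnpa1 at 0.143. Without untreated replicate 2, Hnrnpc was at -0.098 and Hnrnpa1 at 0.026. The fits without 1 library ranged up to 0.128 for Hnrnpc and 0.446 for Hnrnpf, and down to -0.502 for Hnrnph1 and -0.3 for Hnrnpa1. Under oxidative stress Hnrnpa2b1 was at 0.046, 0.131, 0.057 and 0.025 with those 4 scalings, Hnrnpk at 0.039 with the common sum, and Hnrnpa1 at -0.009 without untreated replicate 1 (up to 0.199 without another library). For heat shock and KCl, the common sum gave 0.367 for Hnrnpc and 0.297 for Hnrnph2.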
